A study of Homo sapiens with 12 samples.

Results

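The genes that build or oppose plasma cell identity were followed through RNA sequencing of JJN3, a human multiple myeloma cell line, that is, a line of malignant plasma cells. They were picked as rows of the deposited table by their symbols, with earlier results of these data known: IRF4, PRDM1, XBP1, MZB1, POU2AF1, PAX5, BCL6, BACH2, IKZF1 and IKZF3, which are 10 of 59276 gene symbols. The study asked what happens to myeloma cells when PRMT1, the main enzyme of asymmetric arginine dimethylation, is inhibited or deleted. Its 12 libraries form 4 groups of 3 replicates. DMSO cells were JJN3 given the solvent for 3 days, and MS023 cells received 10 µM of MS023, an inhibitor of the type I protein arginine methyltransferases, for the same time, and the labels name no guide or Cas9 for either group. PRMT1-KO cells were JJN3 that carried lentiviral Cas9 with mCherry, by which they had been sorted, and a puromycin-selected vector with the doxycycline-inducible PRMT1 guide iPRMT1_1. The isgCtrl cells carried the control guide, and both were kept in doxycycline for 3 days. Selected pools were made in this way, and nothing in the labels or methods says that any of them was 1 clone. The methods speak of independent experiments in general, but neither they nor the labels say of these RNA libraries that replicates were separate cultures, so p-values measure the spread between these samples, which may be technical.

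A B cell that becomes a plasma cell exchanges one set of transcription factors for another. PAX5, BCL6 and BACH2 hold the B cell and germinal centre states and repress the plasma cell programme. IRF4 and PRDM1 (the repressor Blimp-1) end those states, and XBP1 then enlarges the secretory apparatus. MZB1 is an endoplasmic reticulum chaperone that helps to assemble and secrete immunoglobulin, and POU2AF1 is the coactivator that octamer-binding factors use at immunoglobulin genes. IKZF1 and IKZF3 (Ikaros and Aiolos) are zinc finger factors that keep IRF4 and MYC expressed in myeloma and are the targets that lenalidomide directs to the cereblon ubiquitin ligase.

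All values are log2(TPM+1), where TPM is a length-scaled share of a library's transcripts. Every library has the same TPM sum, so depth is unknown from these values, and 20988 to 22241 genes per sample were above 0. PRMT1 was first checked in each library. It was 9.76, 9.76 and 9.73 in isgCtrl replicates 1 to 3 and 8.24, 8.28 and 8.24 in PRMT1-KO replicates, with no overlap, and 9.31 to 9.45 in the 6 DMSO and MS023 samples. The cells held plasma cell markers, with group means of 6.49 to 7.07 for SDC1 (CD138) and 7.01 to 7.42 for TNFRSF17 (BCMA), whereas MS4A1 (CD20) and CD22 were at or near 0. Of 16 genes of the mature B cell programme 4 reached a group mean above 1 in DMSO or MS023 cells. CD27 and FCRL5, also used to mark plasma cells, were near 0. T cell markers (6 genes) and myeloid markers (6 genes) had no member above that level, and their summed TPM stayed at or below 0.753 and 3.01 in any sample. The NK cell markers summed to 1.07 to 4.20 TPM, and erythroid markers to 3.53 to 19.3 TPM. Stromal markers summed to 1.04 to 11.5 TPM, with the highest value in isgCtrl. Their part in the results was not tested. In bulk RNA, fewer cells of a type and less RNA per cell cannot be told apart.

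The promoters of XBP1 and MZB1 are shown because these members gave, among the members and on the log2(TPM+1) scale, the largest increase with MS023 and the largest difference between the control groups. With a pseudocount of 0.1 in place of 1, the increase of the scarce BCL6 (1.62) exceeded that of XBP1 (1.15). Each is the 250 bases before a RefSeq transcript start on GRCh38.p14, read on the minus strand: chr22:28800570-28800819 for XBP1 and chr5:139389914-139390163 for MZB1. Capitals in XBP1 mark an endoplasmic reticulum stress response element, searched as CCAAT, any 9 bases and CCACG on both strands. It ended 34 bases before the start. Capitals in MZB1 mark a pair of overlapping CCACG matches, 1 on each strand, which lie 118 to 111 bases before this RefSeq start. The MZB1 gene as annotated in GENCODE reaches to 139390081, so this pair and much of the window lie inside it. The last bases of the XBP1 window, after its marked element, also lie inside its GENCODE gene (to 28800597). Distances from MZB1 to its neighbours below are counted from the GENCODE start. CCACG on its own is also the end of the longer element.
XBP1: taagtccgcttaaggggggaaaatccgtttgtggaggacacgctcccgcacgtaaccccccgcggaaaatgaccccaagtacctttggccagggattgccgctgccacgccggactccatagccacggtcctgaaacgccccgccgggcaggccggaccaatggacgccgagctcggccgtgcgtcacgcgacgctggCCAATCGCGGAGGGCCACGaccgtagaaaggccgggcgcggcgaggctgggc
MZB1: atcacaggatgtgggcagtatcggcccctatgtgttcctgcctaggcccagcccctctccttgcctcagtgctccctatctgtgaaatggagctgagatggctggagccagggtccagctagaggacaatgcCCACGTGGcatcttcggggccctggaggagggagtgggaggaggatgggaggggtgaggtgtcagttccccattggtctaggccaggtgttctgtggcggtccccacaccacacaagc
The full element was found in 26 of 35116 windows of the same length (0.074%), and XBP1 was the 1 member with it. CCACG was found in 33.5% of all windows and in 6 of 13 member windows, of BCL6, MZB1, PAX5, PRDM1 and XBP1. Neither the octamer ATGCAAAT (1.63% of all windows) nor the interferon regulatory factor motif of GAAA, any 2 bases and GAAA (3.02%) occurred in the 13 windows. The 13 windows belong to 8 members, since the sequence table has none for POU2AF1 and IKZF3. These matches describe letters and are no evidence of binding.

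MS023 raised plasma cell factors except IRF4, which was not called, and 2 members of other roles, and it lowered IKZF1. Of the 9 members above the expression floor (a group mean above 1 in either group), 7 were called, which means a Benjamini-Hochberg adjusted p under 0.05 in limma and an absolute log2 difference above 0.48. XBP1, POU2AF1, MZB1, PRDM1, IKZF3 and BCL6 were higher, and IKZF1 was lower. BCL6 passed the floor only through MS023 (mean 1.52, against 0.61 in DMSO), the group where it was high. The floor thus favoured a rise of BCL6, which lowers the weight of its call. Among all 12903 genes tested, 30.9% were called, 11.6% higher and 19.3% lower. The 2 groups did not overlap for 7 members, against 59.5% of all genes tested, so this trait was common. The median difference was 0.73 over the 9 members and -0.11 over all genes tested. Median-ratio scaling moved the median of all genes by 0.107, and no member changed direction under it. Without MS023 replicate 3, which had the highest of 3 MS023 values for 8 of the 9 members, the same 7 members were called. Without any other library, BCL6, IKZF1 or both lost their call, which left 5 or 6.

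**Figure D1:**
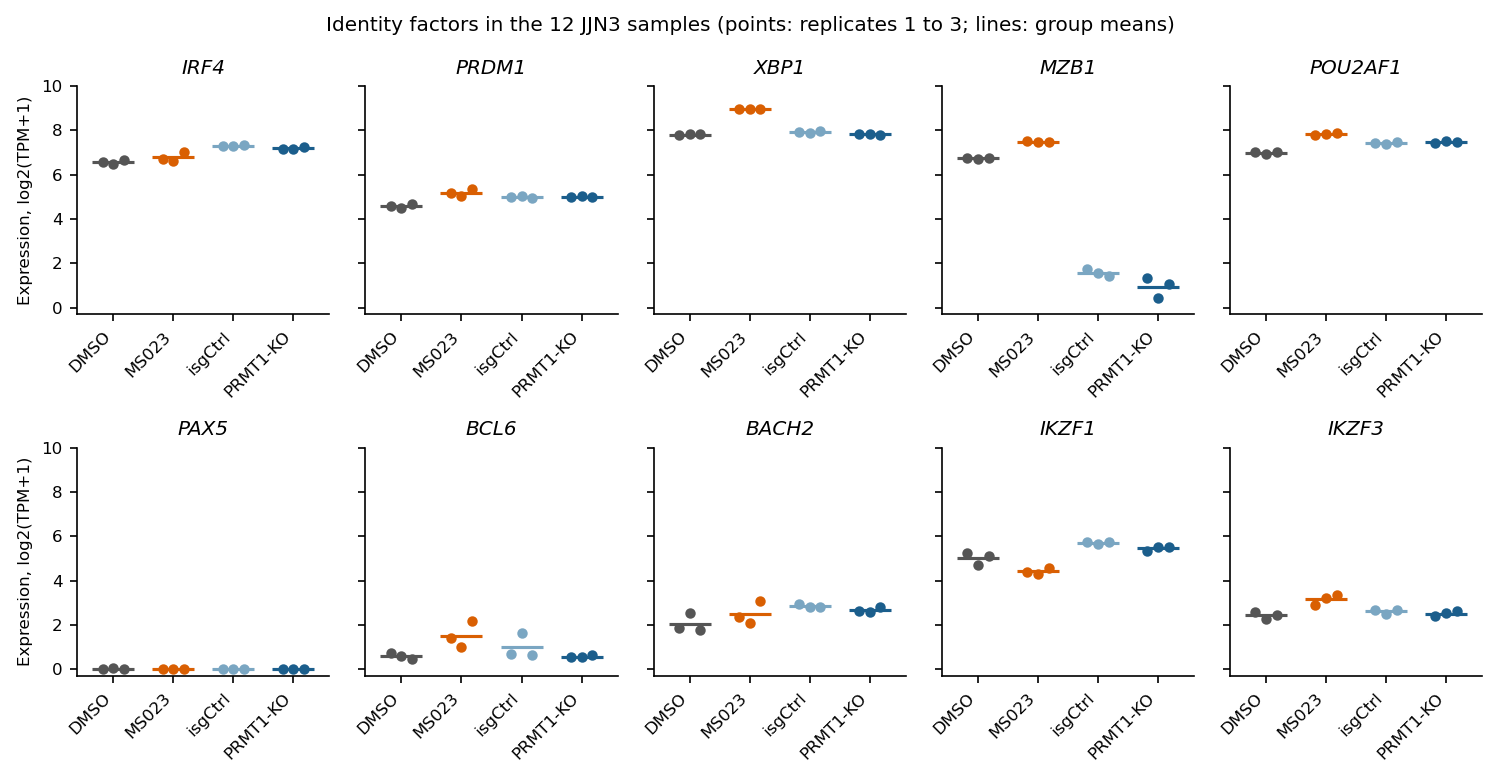
Expression of the 10 members in log2(TPM+1) (vertical axis) in the 4 groups (horizontal axis), with 1 point per replicate and a line at the group mean. XBP1 stands apart in the MS023 samples (8.94 to 8.97), MZB1 lies at 6.70 to 7.51 in the DMSO and MS023 samples and at 0.42 to 1.77 in the isgCtrl and PRMT1-KO samples, and PAX5 lies at or near 0 throughout.

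XBP1, the transcription factor of the secretory and unfolded protein programmes, lies on chromosome 22 (28794555 to 28800597, minus strand, GRCh38). It was 7.78, 7.83 and 7.83 in DMSO replicates and 8.94, 8.96 and 8.97 in MS023 replicates. All MS023 samples lay above all DMSO samples, and the replicates of a group were within 0.1 of each other on this scale. In linear units this was 224 ± 4.51 TPM (SD, n = 3) and 496 ± 4.56 TPM, or 2.22 times as much. The log2 difference was 1.15 with a standard error of 0.06 (95% interval 1.01 to 1.28, limma adjusted p = 8.51e-05). A two-sided exact permutation test gave p = 0.1, the smallest that 3 against 3 allows, as it did for each member whose groups did not overlap. Gene-level TPM do not separate the spliced, active XBP1 mRNA from the unspliced one.

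POU2AF1 (chromosome 11, 111352255 to 111455630, minus strand) was 7.01, 6.94 and 7.02 in DMSO and 7.79, 7.85 and 7.89 in MS023 samples. Its groups did not overlap, and the log2 difference was 0.85 with a standard error of 0.06 (limma adjusted p = 2.53e-04). MZB1 (chromosome 5, 139387467 to 139390081, minus strand) was 6.75, 6.70 and 6.75 in DMSO and 7.51, 7.46 and 7.47 in MS023 samples. The 2 groups were again apart, by a log2 difference of 0.75 with a standard error of 0.06 (limma adjusted p = 2.79e-04). PRDM1 (chromosome 6, 105993463 to 106109939, plus strand) was 4.59, 4.49 and 4.70 in DMSO and 5.19, 5.03 and 5.35 in MS023 samples. Each MS023 sample exceeded each DMSO sample, and the log2 difference was 0.60 with a standard error of 0.11 (limma adjusted p = 0.00527). PRDM1 overlaps ATG5 on the opposite strand, and whether the counting used strand is not given in the sources used here.

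IRF4, the factor on which myeloma cells depend for survival, was not called with MS023. On chromosome 6 (391739 to 411443, plus strand), it was 6.58, 6.50 and 6.67 in DMSO and 6.71, 6.62 and 7.005 in MS023 samples. MS023 replicate 2 lay inside the DMSO range, and replicate 3 was the highest of the 6. The log2 difference was 0.19 with a 95% interval of -0.09 to 0.48 (limma adjusted p = 0.211). MYC, which IRF4 activates in myeloma, had means of 7.77 in DMSO and 7.91 in MS023 and was not called either (log2 difference 0.14, limma adjusted p = 0.126).

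Between the paired Ikaros factors the directions were opposite. IKZF1 (chromosome 7, 50304068 to 50405101, plus strand) was 5.23, 4.71 and 5.12 in DMSO and 4.40, 4.27 and 4.58 in MS023 samples. DMSO replicate 2 was the lowest of its group yet above all MS023 samples. IKZF1 fell by 0.60 on the log2 scale with a standard error of 0.16 (limma adjusted p = 0.0208), to 64.2% of the DMSO mean in TPM. Leaving out 1 library ended this call in 4 of 6 cases: limma adjusted p was 0.0615 without DMSO replicate 1, 0.0637 without DMSO replicate 3, 0.0595 without MS023 replicate 1 and 0.0652 without MS023 replicate 2. IKZF3 (chromosome 17, 39757718 to 39864312, minus strand) was 2.58, 2.27 and 2.46 in DMSO and 2.92, 3.21 and 3.35 in MS023 samples. All MS023 samples were higher, and the log2 difference was 0.73 with a standard error of 0.14 (limma adjusted p = 0.00661). In TPM, IKZF1 was 31.8 ± 5.91 and IKZF3 was 4.42 ± 0.572 in DMSO (SD, n = 3), values that TPM scale by transcript length, and 20.4 ± 2.27 and 7.998 ± 1.32 with MS023. IKZF1 thus remained the more abundant of the pair in both groups.

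Of the genes of the opposing B cell state, PAX5 and BCL6 were scarce. BACH2 was low but above the floor in all groups, with means from 2.05 in DMSO to 2.86 in isgCtrl. PAX5, the factor that commits cells to the B lineage (chromosome 9, 36833269 to 37034268, minus strand), was listed at 0 in 9 of the 12 samples, and the others were 0.06 in DMSO replicate 2, 0.0042 in MS023 replicate 2 and 0.0053 in MS023 replicate 3. It was under the floor in all groups and was not tested. BCL6, the master repressor of the germinal centre (chromosome 3, 187721377 to 187745725, minus strand), was 0.75, 0.60 and 0.48 in DMSO and 1.399, 0.99 and 2.17 in MS023 samples. The groups did not overlap, but the MS023 samples spread from 0.99 to 2.17. The log2 difference was 0.91 with a standard error of 0.29 (limma adjusted p = 0.0440). That call was lost without DMSO replicate 1 (0.0819), 2 (0.0991) or 3 (0.111) and without MS023 replicate 1 (0.0820), all limma adjusted p. Another protein-coding gene overlaps BCL6 in the annotation. BACH2, which delays plasma cell differentiation by repressing PRDM1 (chromosome 6, 89926528 to 90296843, minus strand), was 1.85, 2.52 and 1.78 in DMSO and 2.36, 2.08 and 3.10 in MS023 samples. These groups overlapped, and the log2 difference of 0.46 (95% interval -0.31 to 1.24) was not called (limma adjusted p = 0.266).

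**Figure D2:**
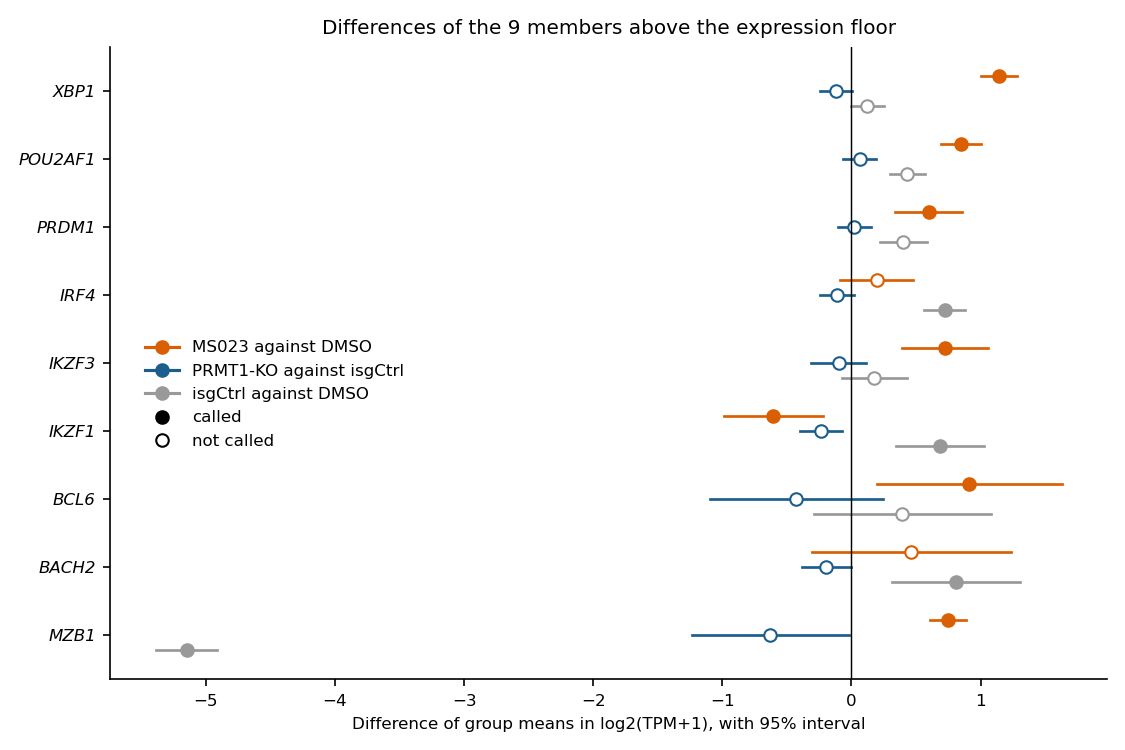
Difference of group means in log2(TPM+1) (horizontal axis) with its 95% interval from limma for the 9 members above the floor (vertical axis) in 3 comparisons, with filled points for called differences. The MS023 points of XBP1, POU2AF1, PRDM1, IKZF3, BCL6 and MZB1 are filled and above 0, all PRMT1-KO points are open, and MZB1 in isgCtrl lies at -5.15.

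Genes that work with the members were read in lists. Of 21 targets of XBP1 in protein folding, transport and quality control, MS023 raised 7 and lowered none, and the other 14 were not called. Under median-ratio scaling 13 were called, and without the fold threshold 16. Their median difference was 0.40, against -0.11 over all genes. HERPUD1, a component of endoplasmic reticulum-associated degradation, rose by 1.999 on the log2 scale, the co-chaperone DNAJB9 by 1.89 and the translocon subunit SEC61A1 by 1.01. DERL3 was the 1 target with a negative difference (-0.29, not called). Of 12 plasma cell markers tested, 7 were higher and 1 was lower. Over all genes tested, 11.6% were called higher and 19.3% lower, the background for both counts. SLAMF7, the target of elotuzumab, rose by 2.37, the costimulatory receptor CD28 by 2.04 and the signalling lymphocyte receptor LY9 by 1.98. JCHAIN, the joining chain of polymeric immunoglobulin, rose from 12.24 to 13.36, and CD38 fell by 0.88.

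Transcription factors and corepressors that work beside the members were tested as well. Of 21 partner transcription factors tested, 1 was higher, IRF8 (1.43), a relative of IRF4, and 7 were lower, among them the E protein inhibitor ID3 (-1.75), the E protein TCF12 (-0.90) and the Ikaros family member IKZF5 (-0.80). Corepressors, through which BCL6, PRDM1 and Ikaros factors silence genes, included 13 tested genes, of which 5 were lower and none higher: CTBP1 (-0.99), RBBP4 (-0.85) and HDAC2 (-0.58) had the largest falls. Under median-ratio scaling 3 corepressors were called. The background for the counts of this paragraph is 11.6% of all genes tested called higher and 19.3% called lower. Lists with 4 or 5 tested genes are too short for their counts to be read against it. In the germinal centre list 2 of 5 tested were higher, MEF2B (1.11) and KLHL6 (0.52), and MYBL1 was lower (-0.99). In the mature B cell list 1 of 4 was higher, FCRLA (0.79). CRBN (cereblon), the receptor through which lenalidomide reaches IKZF1 and IKZF3, differed by -0.22 and was not called (limma adjusted p = 0.0536). Of its 7 ligase genes UBE2G1, an E2 enzyme, was higher (0.57) and the scaffold CUL4B was lower (-0.50). DDB1, CUL4A, RBX1 and UBE2D3 were not called, with differences of 0.19, -0.28, -0.39 and -0.04. Among markers of other cell types, KLRF1 fell by 0.73 and COL1A1 rose by 0.68, both at group means below 2 log2 units.

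**Figure D3:**
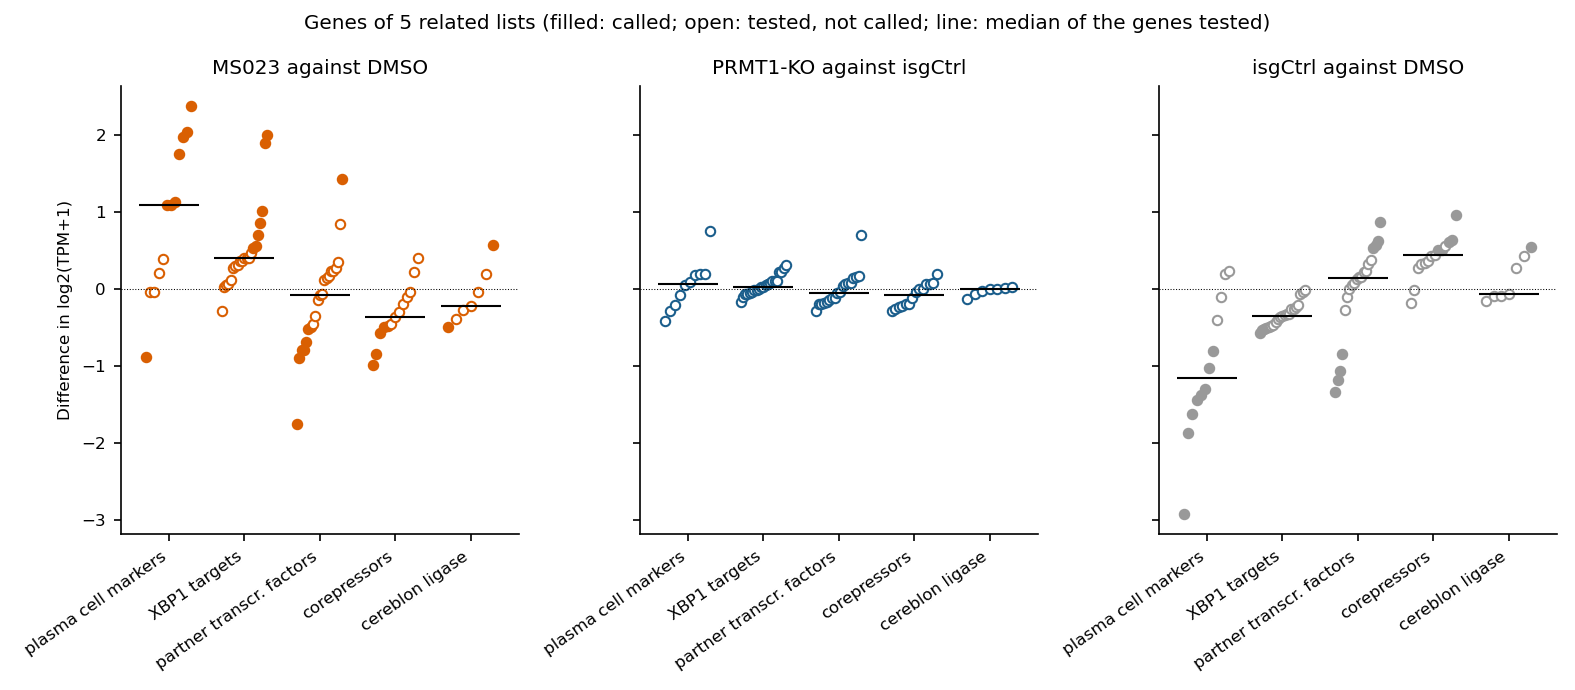
Difference in log2(TPM+1) (vertical axis) of the tested genes of 5 lists (horizontal axis) in 3 comparisons, with 1 point per gene, filled where called, and a line at the list median. With MS023 the XBP1 targets have a median of 0.40 and the plasma cell markers of 1.08. With PRMT1-KO no gene of the 5 lists is called, against 0.781% of all genes tested. With isgCtrl the plasma cell markers have a median of -1.16.

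With deletion of PRMT1 no member passed the test, in a comparison where few genes did. In limma 0 of 9 were called (adjusted p under 0.05), against 0.781% of all 12285 genes (0.415% higher and 0.366% lower), a share at which a count of 0 says little about the members. An unadjusted p under 0.05 was found for 3 members and 18.6% of all genes tested. Of the 9 differences 7 were negative, against 60.5% of all genes, and 6 members had groups that did not overlap, against 26.7% of all genes. Both counts include MZB1 and BCL6, which passed the floor only through isgCtrl, so that the floor favoured negative differences for them. Their means were 1.58 and 1.002 in isgCtrl and 0.96 and 0.57 in PRMT1-KO. The median was -0.12 over the members and -0.04 over all genes tested.

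IKZF1 had the lowest adjusted p of the members in this comparison. It was 5.72, 5.66 and 5.73 in isgCtrl and 5.35, 5.53 and 5.52 in PRMT1-KO samples. The PRMT1-KO samples all lay below, by 0.24 log2 units (95% interval 0.07 to 0.40 lower, limma adjusted p = 0.160). XBP1 was 7.94, 7.90 and 7.97 in isgCtrl and 7.85, 7.82 and 7.77 in PRMT1-KO samples. It did not overlap either, but the difference of -0.12 was small (95% interval -0.24 to 0.0023, limma adjusted p = 0.275). IRF4 was 7.29, 7.28 and 7.35 in isgCtrl and 7.16, 7.16 and 7.26 in PRMT1-KO, again without overlap (difference -0.11, 95% interval -0.25 to 0.02, limma adjusted p = 0.313).

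PRDM1 and POU2AF1 were the 2 members with positive differences, and in both the groups overlapped. PRDM1 was 5.01, 5.04 and 4.94 in isgCtrl and 4.997, 5.05 and 4.997 in PRMT1-KO, a difference of 0.02 (95% interval -0.11 to 0.15). POU2AF1 was 7.44, 7.38 and 7.46 in isgCtrl and 7.45, 7.54 and 7.49 in PRMT1-KO, a difference of 0.06 (95% interval -0.06 to 0.19). IKZF3 overlapped as well, at 2.66, 2.48 and 2.69 in isgCtrl and 2.40, 2.53 and 2.62 in PRMT1-KO (difference -0.10, 95% interval -0.31 to 0.11). For these 3 members the intervals exclude differences as large as those seen with MS023.

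Members at low levels left wider intervals. BACH2 was 2.94, 2.82 and 2.82 in isgCtrl and 2.62, 2.58 and 2.80 in PRMT1-KO, which do not overlap (difference -0.19, limma adjusted p = 0.263). BCL6 was 0.70, 1.65 and 0.66 in isgCtrl and 0.55, 0.54 and 0.64 in PRMT1-KO. The isgCtrl replicate 2 alone stood above 1, and the difference of -0.43 had a 95% interval of -1.10 to 0.24. MZB1 was 1.77, 1.56 and 1.42 in isgCtrl and 1.36, 0.42 and 1.08 in PRMT1-KO, a difference of -0.63 (95% interval -1.24 to -0.02, limma adjusted p = 0.258). In TPM these means were 2.01 ± 0.375 and 1.01 ± 0.622 (SD, n = 3). In the lists, limma called none of 10 plasma cell markers, 21 XBP1 targets, 18 partner factors, 7 ligase genes or 14 corepressors with PRMT1-KO. Of all genes tested 0.781% were called, a share at which these counts of 0 say little about the lists. NCR1, from the NK cell list, was the 1 gene of the 12 lists that was called (-0.94). No group mean in that list exceeded 1.72, and NCR1 passed the floor only through isgCtrl, the group where it was high.

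The 2 control groups differed in several members, MZB1 above all. This comparison shares its samples with both others, and the guide vector, Cas9, puromycin, doxycycline, DMSO, the stock of JJN3 cells and any batch cannot be told apart in it. Whether the guide-bearing and the DMSO cells came from the same stock is not given in the sources used here. MZB1 was 6.75, 6.70 and 6.75 in DMSO but 1.77, 1.56 and 1.42 in isgCtrl, so that the mean TPM of isgCtrl was 1.91% of that of DMSO, or 52.3-fold lower. The log2 difference was -5.15 with a standard error of 0.10 (limma adjusted p = 2.43e-05). Of 12661 genes tested MZB1 had the 4th largest fall, after IGLV2-14, IGLC1 and IGLV2-11 of the immunoglobulin lambda locus, whose reads are hard to assign among near-identical segments. In all, 13.9% of genes were called between the control groups, 7.23% higher and 6.7% lower in isgCtrl, and 4 of the 9 members tested were. The control groups did not overlap for 7 members, against 51.7% of all genes tested.

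The genes around MZB1 moved far less and in both directions. Of 12 other protein-coding genes with a start within 300 kb, 9 were tested, and their differences ran from -0.64 to 0.49. SIL1 (-0.64) and SPATA24 (-0.55) were lower, and DNAJC18 (0.49) was higher. PROB1, whose start is 5.02 kb from that of MZB1, differed by -0.22 and was not called, and PAIP2 on the other side differed by 0.06.

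IRF4, BACH2 and IKZF1 were higher in isgCtrl than in DMSO. For IRF4 the log2 difference was 0.72 (limma adjusted p = 0.00135) and for IKZF1 0.68 (limma adjusted p = 0.0143), and neither group pair overlapped. MYC was higher too, by 0.86 (limma adjusted p = 8.31e-04). BACH2 differed by 0.81 (limma adjusted p = 0.0270), a call that was lost without DMSO replicate 1 (0.0777) or 3 (0.0690) and without isgCtrl replicate 1 (0.0797), 2 (0.0700) or 3 (0.0683), all limma adjusted p. POU2AF1 (0.43, limma adjusted p = 0.00344) and PRDM1 (0.40, limma adjusted p = 0.0103) had groups that did not overlap but stayed under the fold threshold. XBP1 (0.12), IKZF3 (0.18) and BCL6 (0.39) were not called. Among plasma cell markers 8 of 12 tested were lower in isgCtrl and none higher, among them SLAMF7 (-2.92), CD28 (-1.87) and JCHAIN (-1.29). XBP1 targets were lower in 5 of 21, with a median of -0.35, at an XBP1 level of 7.94 in isgCtrl and 7.81 in DMSO. Over all genes tested, 6.7% were called lower and 7.23% higher. Erythroid HBA1 (1.56) and NK cell NCR1 (1.26) were higher, and their part in these differences was not tested. NCR1 passed the floor only through isgCtrl.

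Whether MS023 and the PRMT1 guide acted unequally on the members was tested directly in a fit of all 12 samples, as the MS023 difference minus the PRMT1-KO difference. Of 9 members 6 were called at a limma adjusted p under 0.05, all with larger values for MS023, against 35.6% of 13256 genes (14.4% higher and 21.2% lower). They were MZB1 (1.38), BCL6 (1.34), XBP1 (1.27), IKZF3 (0.82), POU2AF1 (0.78) and PRDM1 (0.58). XBP1 was the most precise, with a standard error of 0.06 (limma adjusted p = 9.53e-07). BCL6 passed the floor only through MS023 and isgCtrl (means 1.52 and 1.002), where high values raise this difference. MZB1 starts from unequal baselines in this test, near 7 log2 units in DMSO and MS023 cells and near 1 to 2 in the guide-bearing cells, where the +1 of the scale makes changes smaller. BCL6 lost its call without any 1 of the 3 DMSO or the 3 PRMT1-KO replicates, MS023 replicates 1 or 3, or isgCtrl replicate 2, with limma adjusted p of 0.0525 to 0.0718. IKZF1 differed by -0.37 (limma adjusted p = 0.140) and BACH2 by 0.66 (0.179), and were not called. IKZF1 passed without DMSO replicate 2 (-0.52, limma adjusted p = 0.0127). IRF4 differed by 0.31 (limma adjusted p = 0.0916), and passed without MS023 replicate 2 (0.39, limma adjusted p = 0.0357), under median-ratio scaling (0.39, limma adjusted p = 0.0192) and under quantile normalization (0.34, limma adjusted p = 0.0456). The XBP1 targets were higher in 14 and lower in 1 of 21. PRMT1 mRNA itself differed by 1.54, since MS023 did not lower it (log2 difference 0.04, limma adjusted p = 0.597) whereas the guide did (-1.50, limma adjusted p = 7.20e-04).

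The order of the groups was not the same for all members. XBP1, POU2AF1, PRDM1, IKZF3, BCL6 and MZB1 had their highest mean in MS023 cells. IRF4, BACH2 and IKZF1 had theirs in isgCtrl cells, with PRMT1-KO in second place. IRF4 means were 7.31 in isgCtrl, 7.19 in PRMT1-KO, 6.78 in MS023 and 6.58 in DMSO, and of these neighbours MS023 and DMSO overlapped. For PRDM1 the MS023, PRMT1-KO and isgCtrl samples overlapped in turn, and DMSO (4.59) lay below them. IKZF1 ran from 5.71 in isgCtrl to 5.47 in PRMT1-KO, 5.02 in DMSO and 4.42 in MS023 with no overlap between neighbours. XBP1 in PRMT1-KO and in DMSO cells differed by 0.0033 log2 units and overlapped. In TPM, which adjust for transcript length, the most abundant member in DMSO cells was XBP1 (224), followed by POU2AF1 (126), MZB1 (105) and IRF4 (95.1), then IKZF1 (31.8), PRDM1 (23.2), IKZF3 (4.42), BACH2 (3.26) and BCL6 (0.528).

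Genes with profiles most like each member over the 12 samples were ranked by Pearson's r among 13255 genes above the floor. The 12 points are 4 groups of 3 that share culture conditions, so r mainly follows the group means and is given as a description. XBP1 was most like FTL (ferritin light chain), RGS1 and ARF1 (r = 0.996, 0.996 and 0.995). MZB1 was most like PTPN7, PTPRCAP and IGLV2-11 (0.996, 0.994 and 0.993). IKZF1 followed NIN, BCR and GTF3C4 (0.994, 0.992 and 0.986), and POU2AF1 followed ZFP36L2, GADD45A and GRINA (0.990, 0.986 and 0.986). For IRF4 the nearest were CLSTN1, LARP1 and DHX34 (0.978, 0.977 and 0.975). For PRDM1 they were TNFAIP1, RNF216 and GBF1 (0.978, 0.957 and 0.955), and for IKZF3 CBX6, OXCT2 and the pseudogene SOD1P3 (0.959, 0.951 and 0.950). BACH2 (PISD, AL118506.1 and MAP4, 0.903, 0.897 and 0.894) and BCL6 (AL133410.1, DCC and OSBPL7, 0.882, 0.882 and 0.881) had looser matches. Among the members themselves PRDM1 and POU2AF1 had r = 0.925 and XBP1 and IKZF3 r = 0.902, and IRF4 and MZB1 ran opposite (r = -0.879).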

How the data were processed

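RNA of 12 JJN3 samples, 4 groups of 3 replicates by the labels, was analysed. By the study's methods the authors checked reads with FastQC, trimmed them with Trimmomatic, aligned them in two-pass mode with STAR (genome hg38, annotation GENCODE V35) and estimated expression with Salmon, and they deposited gene TPM as log2(TPM+1). These log2 values were used as deposited. No read was processed again, and neither depth nor a counting interval can be had from TPM.

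The members and gene lists were chosen with earlier results of these data known. Where either group's mean exceeded 1, a gene was fitted with limma 3.58.1 in R 4.3.3 (eBayes without trend, 6 samples per comparison, 12 for the difference of differences), and p were adjusted by Benjamini-Hochberg over all genes tested. Calls needed adjusted p under 0.05 and a log2 difference beyond 0.48 in size, without the latter for the difference of differences. Differences on the log2(TPM+1) scale understate changes of low genes. Single members had two-sided exact permutation tests in Python with scipy 1.17.1. Named genes were the members, PRMT1, MYC, the cereblon ligase list, up to 3 called genes per direction and list with MS023 and PRMT1-KO, and the 3 genes nearest to each member in r. Other list genes and MZB1's neighbours were named after their values were seen. Positions are from GENCODE v44 (GRCh38) and promoters from RefSeq (GRCh38.p14). The code was tested on simulated data.

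Alternatives were no filter on low values, quantile normalization, median-ratio scaling, a trend in eBayes, a 0.1 pseudocount, the replicate number as a block, all 12 samples in one fit, an adjusted p under 0.25, no fold threshold and each replicate left out in turn.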

Additional observations from a re-analysis of the deposited data

Results flagged for a closer look

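These results differed between MS023 and PRMT1-KO by limma's test of the difference of differences (Benjamini-Hochberg adjusted p under 0.05), and all values are the MS023 difference minus the PRMT1-KO difference in log2(TPM+1). Of the members, these were MZB1 (1.38), BCL6 (1.34), XBP1 (1.27), IKZF3 (0.82), POU2AF1 (0.78) and PRDM1 (0.58). PRMT1, the target of the guide, differed by 1.54 and MYC by 0.28.

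Plasma cell markers included SLAMF7 (2.27), LY9 (2.09) and CD28 (1.29), with CD38 at -0.60. XBP1 targets included HERPUD1 (1.68), DNAJB9 (1.62) and SEC61A1 (0.98). Of 21 partner factors 2 were higher and 6 lower, among them IRF8 (1.37), ID3 (-1.55) and IKZF5 (-0.74). Of 14 corepressors 6 were lower and 1 was higher, and those lower included CTBP1 (-0.70), HDAC2 (-0.66) and RBBP4 (-0.65). Over all genes tested, 14.4% were higher and 21.2% lower. Germinal centre and B cell genes included MEF2B (1.11), FCRLA (0.97), KLHL6 (0.53) and MYBL1 (-0.69), and 1 further mature B cell gene was lower. The ligase genes were UBE2G1 (0.56), RBX1 (-0.41) and CUL4B (-0.37). NCR1, a marker of NK cells, had 1.13, and passed the floor only through isgCtrl. All groups have 3 samples, too few for a test of single samples that stand apart.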

How the results depend on the processing

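The number of members called stayed within 1.5 times of that reported in 15 alternatives for each of the 3 pairwise comparisons and in 19 for the difference of differences. That band is wide for 9 members: it takes in 5 for 7 with MS023, 6 for 4 in isgCtrl and 9 for 6 in the difference of differences. With PRMT1-KO the count was 0 in each, where calls over all genes were only 0 to 365. With 1 library left out it was 5 to 7 with MS023, 0 to 0 with PRMT1-KO, 3 to 4 for isgCtrl against DMSO and 5 to 7 for the difference of differences. Of 574 member values under an alternative, 533 kept direction and call, 30 lost a call, 10 gained one and 1 changed sign, PRDM1 with PRMT1-KO without isgCtrl replicate 3 (-0.0077, and up to 0.043 with another library left out). Many could not change: the trend, the block, the fit of all 12 samples and the altered thresholds leave a difference as it was. The looser thresholds cannot lose a call, and a member without a call has none to lose.

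Same-numbered samples deviated together with a mean r of 0.07 (MS023 and DMSO), -0.05 (PRMT1-KO and isgCtrl) and -0.10 (isgCtrl and DMSO), so the numbers are not taken as pairs. With the replicate number as a block, 6, 0, 3 and 6 members were called in the same order of comparisons: BCL6 was lost with MS023 (limma adjusted p = 0.0634) and in the difference of differences (0.0640), where IRF4 was gained (0.0402), and BACH2 was lost in isgCtrl (0.0547). Calls over all genes with PRMT1-KO went from 96 to 0 with the block, among them PRMT1 (0.149).

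Calls over all genes with PRMT1-KO were also 48 without the filter, 157 without the fold threshold, 365 at an adjusted p under 0.25 and 2 to 21 with 1 library left out, the lowest without isgCtrl replicate 2. Without the fold threshold 6300 genes were called with MS023 (3986 with it) and 4373 in isgCtrl (1763 with it), and at 0.25 the difference of differences had 7741 (4719). XBP1 targets called with MS023 were 13 under median-ratio scaling and 16 without the fold threshold, and corepressors 3 under that scaling. The ligase genes called were 1 under that scaling, under quantile normalization, and without DMSO or MS023 replicate 1, and 4 without the fold threshold. Without the filter IKZF1 (0.0554) and BCL6 (0.116) lost their calls with MS023, and IKZF1 fell by 0.46 under quantile normalization, under the threshold. The causes were not tested.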
